A study of Mus musculus with 12 samples.

Results

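Wnt signalling in the newborn mouse kidney was followed through 55 genes, out of 24062 gene symbols counted in each of 12 whole kidneys. They were all the rows named as numbered Wnt, Fzd, Sfrp, Dkk or Rspo genes, together with Lef1, Tcf7, Tcf7l1, Tcf7l2, Axin1, Axin2, Lrp5, Lrp6, Ctnnb1, Lgr4, Lgr5, Nkd1, Notum and Wif1. By role they were 19 Wnt ligands, 4 R-spondins, 2 R-spondin receptors, 10 Frizzled receptors, 2 LRP co-receptors, 10 secreted inhibitors, 4 intracellular effectors and regulators and 4 TCF/LEF transcription factors.

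RNA was sequenced from kidneys at postnatal day 3, close to the end of nephron formation, with 3 kidneys in each of 4 groups. LIN28B Wt1 mice, on C57BL/6, carried a human LIN28B transgene under a tetracycline-responsive promoter, a reverse transactivator behind a floxed stop cassette and Wt1-Cre. They received doxycycline in the drinking water. The paper's main LIN28B Wt1 experiments used a single short pulse of it before birth, and no separate schedule is stated for the sequenced kidneys. The controls of the LIN28B Wt1 mice were littermates on C57BL/6. The let-7 KO mice carried a constitutive combined deletion of let-7a1, let-7d and let-7f1 on a mixed CD1 and C57BL/6 background, and were compared with their WT littermates of the same mixed background. Wt1-Cre acts in early kidney progenitors and their descendants and not in the whole organ, whereas the let-7 deletion was present in every cell. Other let-7 genes remained intact in the KO mice. The alleles carried by the controls and their exposure to doxycycline are not given in the sources used here. Each group came from 2 litters, and kidneys 1 and 2 of a group were from litter 1 and kidney 3 from litter 2. The kidneys of a group are described as biological replicates.

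Wnt ligands are secreted lipid-modified proteins that bind a Frizzled receptor and an LRP5 or LRP6 co-receptor. In the canonical branch this binding stabilises beta-catenin, the product of Ctnnb1, which enters the nucleus and joins TCF/LEF factors at target genes such as Axin2. R-spondins strengthen the signal through the Lgr receptors, and the Sfrp, Dkk, Wif1 and Notum proteins act outside the cell, mostly to weaken it. In the developing kidney, Wnt9b from the ureteric bud acts on the cap mesenchyme, the pool of nephron progenitors, and Wnt4 drives the change of these progenitors into epithelium. Wnt11 belongs to the ureteric tip and Wnt7b to the collecting duct.

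The mature products of the 3 let-7 genes deleted in the KO mice are shown first. The study asks what LIN28B, which blocks let-7 maturation, and loss of let-7 do to the same tissue. The let-7f-5p sequence is also listed for Mirlet7f-2 on chromosome X, which was not deleted, so the deletion need not remove every mature copy. Capitals mark the seed, bases 2 to 8, which is the same 7 letters in all 3, and the sequences and positions are those of RefSeq on GRCm38.p6.
let-7a-5p, chr13:48538239-48538260, minus strand: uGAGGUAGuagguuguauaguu
let-7d-5p, chr13:48536078-48536099, minus strand: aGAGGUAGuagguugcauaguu
let-7f-5p, chr13:48537889-48537910, minus strand: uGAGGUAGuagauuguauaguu

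The letters complementary to that seed, CTACCTC, were searched on the transcript strand of each member's annotated 3′ UTR in GENCODE M21 (GRCm38). They were found once in each of 14 of the 55 members. Among the 45 members tested 10 had them, or 22.2%, against 10.4% of the 14487 genes tested that had an annotated 3′ UTR. The 3′ UTRs of these members were also the longer, with a median of 1712 bases against 1127. Of the 14, Wnt9b, Fzd3, Fzd4, Lgr4, Dkk3, Nkd1 and Tcf7l1 had a mean of at least 5 CPM (counts per 1000000 counts) in these kidneys, and their matches are printed with the flanking bases, the seed match in capitals.
Wnt9b, chr11:103728684-103728706, minus strand: atttctgcCTACCTCatacatgt
Fzd3, chr14:65200865-65200887, minus strand: tcctctacCTACCTCacaaagtt
Fzd4, chr7:89412695-89412717, plus strand: agtttcttCTACCTCacagagat
Lgr4, chr2:110013925-110013947, plus strand: aattaaagCTACCTCctaaactc
Dkk3, chr7:112117727-112117749, minus strand: ttcagctcCTACCTCactgtcag
Nkd1, chr8:88592519-88592541, plus strand: aacagctgCTACCTCtcagtgtt
Tcf7l1, chr6:72626993-72627015, minus strand: atatctctCTACCTCttctcttc
The other 7 members with a match were Wnt1, Wnt3a, Wnt9a, Wnt10a, Wnt16, Rspo2 and Dkk4. No match was found in Rspo1, Fzd2, Sfrp1, Fzd6 or Wnt6, which the results below turn on. A match is only a run of letters in the annotation and was not tested as a let-7 site.

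Counts summed to between 39926235 and 61872736 per kidney, and 3 counts corresponded to between 0.0490 and 0.0825 CPM after scaling by the trimmed mean of M values (TMM). This floor covers counting error only. Mirlet7d had 0 counts in the 3 let-7 KO kidneys, which allows up to the same floor, but its reads were also absent from 1 WT kidney, so that row alone does not check every label. The human transgene has no row of its own. Reads on the mouse Lin28b symbol went from 0, 0.414 and 0.632 CPM in controls to 3.79, 4.18 and 1.18 CPM in LIN28B Wt1 kidneys. Adrenal and skeletal muscle lists summed to between 1.79 and 6.96 CPM in every kidney. The adipose list of 5 genes summed to 422 to 531 CPM in LIN28B controls, 239.8 to 403 in LIN28B Wt1, 252 to 414 in let-7 WT and 417 to 628 in let-7 KO kidneys, and most of each sum was Fabp4. Adipoq, a gene of fat cells, measured 22.4, 25.7 and 2.60 CPM in LIN28B controls and at most 3.48 CPM in the other groups. The median log2 change of the list was -3.08 in LIN28B Wt1 kidneys, none of its genes reached p below 0.01 there, and its part in the results was not tested. Correlation with the rest of the group was lower in the let-7 experiment, with medians of 0.906 to 0.935 per kidney against 0.920 to 0.963 in the LIN28B experiment. Expression also leaned on transcript length to different degrees. The slope of a kidney's log2 expression on log2 exon length ran from -0.00 to 0.11 in LIN28B controls, -0.04 to 0.13 in LIN28B Wt1, -0.09 to 0.13 in let-7 WT and -0.16 to 0.00 in let-7 KO kidneys. Genes on the Y chromosome were expressed in 1 of 3 kidneys of each LIN28B group and in 2 of 3 of each let-7 group.

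Beta-catenin and the secreted Frizzled-related proteins stood at the top of the pathway. Levels were compared between genes as CPM per kilobase of exon model, averaged over the 12 kidneys. Ctnnb1 was the highest at 111, followed by Sfrp1 at 91.3 and Sfrp2 at 56.5 per kilobase. Wnt4 was the leading ligand, at 34.6 per kilobase, ahead of Wnt11 at 23.3, Wnt7b at 9.62, Wnt5b at 9.21, Wnt9b at 6.01 and Wnt5a at 5.89. In all, 15 members lay above 10 per kilobase, 17 between 1 and 10, 19 above 0 and below 1, and 4 (Wnt1, Wnt3a, Wnt8a and Dkk4) had no count in any kidney.

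The receptors were ordered in the same way. Fzd1, at 22.5 per kilobase, Fzd2, at 15.5, and Fzd7, at 14.5, led the Frizzled family. Lgr4 stood at 15.3 per kilobase and its relative Lgr5 at 0.421, while Lrp6 stood at 4.54 and Lrp5 at 0.605. Rspo1, at 11.7, and Rspo3, at 4.19, were the R-spondins present, and Rspo2 and Rspo4 reached at most 0.743 and 0.364 CPM in any kidney. Ctnnb1, Sfrp1 and Sfrp2 took the top 3 places in each of the 4 groups, but their order changed. Sfrp1 was first in let-7 WT kidneys, at 136 per kilobase against 126 for Ctnnb1, and below Sfrp2 in LIN28B Wt1 kidneys, at 49.4 against 59.3. Neighbours in this order were not tested against each other.

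**Figure D1:**
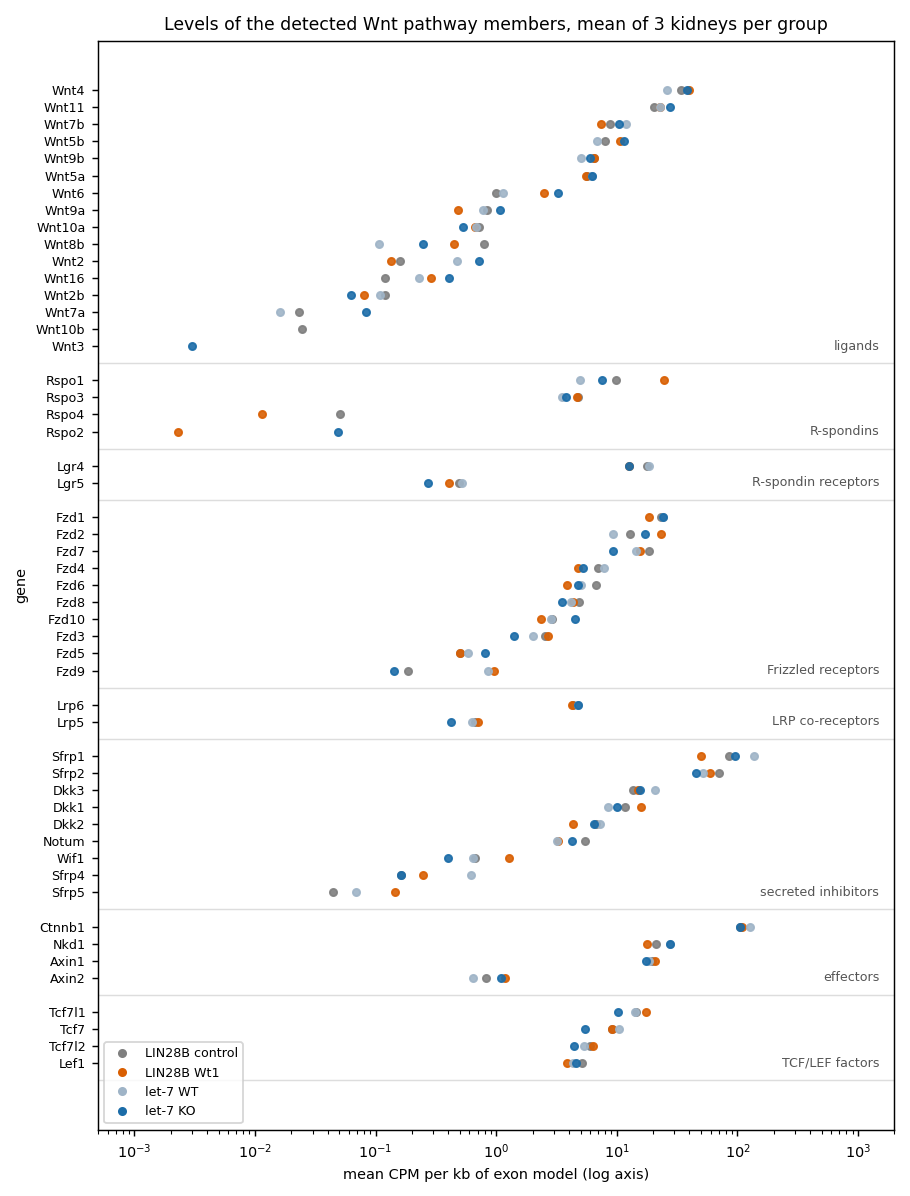
Mean CPM per kilobase of exon model on a log axis for the 51 members with any count, grouped by role, with 1 point for each of the 4 groups (mean of 3 kidneys; a group at 0 has no point). Ctnnb1, Sfrp1 and Sfrp2 lie furthest to the right, and the points of Rspo1, Fzd2 and Wnt6 are spread more widely than those of Ctnnb1 or Lrp6.

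Of the 55 members, 45 passed the filter on low counts in each model and 10 passed in neither. Among the 33 members with a mean of at least 5 CPM, the coefficient of variation within groups ranged from 8.31% for Tcf7l2 to 41.6% for Fzd4, with a median of 21%, against 20.8% over the 11823 genes of at least 5 CPM. Members therefore varied between kidneys of a group about as much as other genes.

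In LIN28B Wt1 kidneys, 3 of the 45 members tested changed at an adjusted p below 0.05 in edgeR's quasi-likelihood test, against 1.23% of the 15793 genes tested. Rspo1 and Fzd2 rose and Sfrp1 fell. At the study's threshold of an unadjusted p below 0.01, Fzd6 joined them among the lowered genes, giving 4 of 45 members, or 8.89%, against 7.33% of all genes, so the share of members at that threshold was near the background. At p below 0.05 there were 10 members, or 22.2%, against 18% of all genes. The 2 groups of kidneys did not overlap for 13 of the 45 members, 8 higher and 5 lower, or 28.9%, against 23.9% of all genes. Log2 changes had a median of -0.03 over the members and -0.02 over all genes. Whole kidneys were sequenced, so a change in the number of cells of a type and a change in RNA per cell cannot be told apart for any gene here.

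In let-7 KO kidneys, no member reached an adjusted p below 0.05 in edgeR's quasi-likelihood test or in DESeq2. Of the 15500 genes tested, edgeR called 3, or 0.0194%, and DESeq2 called 161, or 1.04%. At an unadjusted p below 0.05 there were 8 members in edgeR, or 17.8%, against 10.8% of all genes. At p below 0.01 there was 1 of 45, Fzd2, or 2.22%, against 2.73% of all genes. The groups did not overlap for 9 of 45 members, 5 higher and 4 lower, or 20%, against 16.8% of all genes. Log2 changes had a median of -0.08 over the members and -0.02 over all genes.

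Rspo1, a secreted potentiator of Wnt signalling made by nephron progenitors (chr4:124986430-125009099 on mm10), was the member raised with the smallest p value in LIN28B Wt1 kidneys. It measured 19.7, 20.1 and 17.7 CPM in the 3 controls and 45.5, 44.6 and 52.1 CPM in the 3 LIN28B Wt1 kidneys. The lowest LIN28B Wt1 kidney was thus far above the highest control, and both litters showed the rise. The rise was 2.48-fold, a log2 fold change of 1.31 ± 0.17 (SE), with an adjusted p of 0.00968 in edgeR's quasi-likelihood test. Within litters the log2 difference was 1.18 in litter 1 and 1.56 in litter 2. Without control kidney 1 its adjusted p was 0.0822 and without control kidney 2 it was 0.0903, with a log2 fold change of 1.33 and 1.35.

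The let-7 experiment had less Rspo1 in both of its groups. The WT littermates measured 7.44, 7.98 and 13.1 CPM and the let-7 KO kidneys 11.4, 14.5 and 17.6 CPM, and the groups overlapped. The log2 fold change was 0.60 ± 0.35 (SE), with adjusted p = 0.563 in edgeR's quasi-likelihood test. Rspo3, the other R-spondin present, measured 14.9 ± 3.32 CPM (SD, n = 3) in LIN28B controls and 14.3 ± 1.90 CPM in LIN28B Wt1 kidneys, a log2 fold change of -0.05 ± 0.25 (SE), and 10.8 ± 3.60 and 11.8 ± 2.22 CPM in let-7 WT and KO kidneys, a log2 fold change of 0.12 ± 0.36 (SE). Neither model separated its groups for Rspo3, so the summed R-spondin level, 32 to 36.7 CPM in LIN28B controls and 59.3 to 64.4 CPM in LIN28B Wt1 kidneys, differed mainly by its Rspo1 part.

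Most tested markers of the cap mesenchyme moved with Rspo1 in LIN28B Wt1 kidneys. Of 14 listed markers 13 were tested and 7 rose at an adjusted p below 0.05, Six2, Cited1, Eya1, Osr1, Crym, Gdnf and Phf19. None fell at that threshold, which 1.23% of all genes passed. At p below 0.01, 9 were higher and 1 was lower, against 7.33% of all genes. The summed level of the list was 456 to 490.3 CPM in LIN28B controls, 790.5 to 1047 CPM in LIN28B Wt1, 304 to 401 CPM in let-7 WT and 361 to 408 CPM in let-7 KO kidneys. In the same LIN28B Wt1 kidneys the proximal tubule list summed to 1691 to 2005 CPM against 3675 to 3855 CPM in controls. At an adjusted p below 0.05, 3 of its 9 markers were lower. The loop and distal tubule list summed to 803 to 850.1 against 1363 to 1943 CPM, with 2 of 6 lower at that threshold. No marker of these lists reached an adjusted p below 0.05 in let-7 KO kidneys, where the proximal tubule sum was 3612 to 4407 CPM against 5234 to 5899 CPM in WT littermates. At p below 0.01, 2 of 13 cap mesenchyme markers were higher there and none lower. The lower ones were 3 of 9 proximal tubule and 1 of 6 loop and distal tubule markers, against 2.73% of all genes. The part of these shifts in the changes of Wnt genes was not tested.

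**Figure D2:**
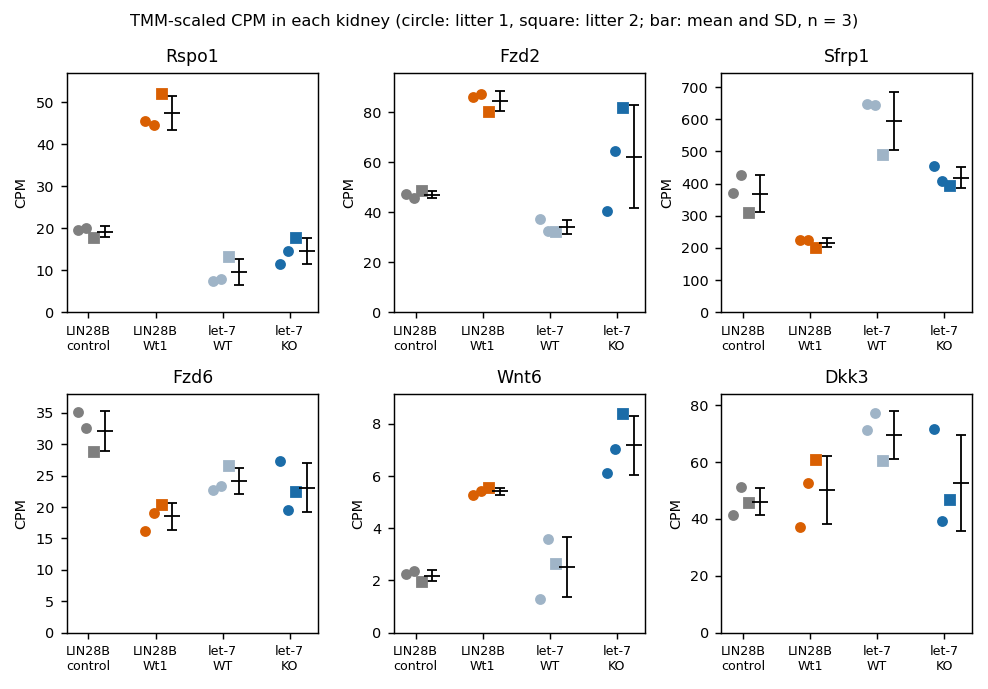
CPM of 6 members in each of the 12 kidneys, by group, with circles for litter 1, squares for litter 2 and bars for the mean and SD of 3 kidneys. Rspo1 in LIN28B Wt1 kidneys lies at 44.6 to 52.1 CPM, clear of its controls at 17.7 to 20.1, and Fzd2 and Wnt6 lie higher and Sfrp1 lower in both mutant groups than in their own littermates.

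Lgr4, the R-spondin receptor with the higher level here, measured 138, 84.6 and 90.4 CPM in LIN28B controls and 68.0, 68.6 and 85.3 CPM in LIN28B Wt1 kidneys, and 111, 73.6 and 139 CPM in let-7 WT and 85.3, 63.6 and 73.6 CPM in let-7 KO kidneys. Groups overlapped in both experiments. The fitted log2 change was -0.49 ± 0.21 (SE) for LIN28B Wt1, adjusted p = 0.249, and -0.55 ± 0.24 (SE) in let-7 KO, adjusted p = 0.449, in edgeR's quasi-likelihood test, so neither passed. In LIN28B Wt1 kidneys the value rested on control kidney 1, since without it the log2 fold change was -0.24. The let-7 KO value ran from -0.75 without WT kidney 2, where it reached p below 0.01, to -0.12 with the length slope as a covariate, and was -0.31 in litter 1 and -0.92 in litter 2. Lgr5, a receptor known as a marker of stem cells, was lower, at 5.02 ± 0.958, 4.17 ± 3.57, 5.29 ± 2.77 and 2.81 ± 0.764 CPM (SD, n = 3) in LIN28B control, LIN28B Wt1, let-7 WT and let-7 KO kidneys. Its log2 fold change was -0.26 ± 0.73 (SE) in LIN28B Wt1 mice and -0.92 ± 0.58 (SE) in let-7 KO kidneys, with adjusted p = 0.901 and adjusted p = 0.596 in edgeR's test.

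Among the Frizzled receptors, Fzd2 (chr11:102604396-102608058) had the same direction and nearly the same size of difference in both models. It measured 47.3, 45.5 and 48.3 CPM in LIN28B controls and 85.9, 87.5 and 80.1 CPM in LIN28B Wt1 kidneys, a rise of 1.80-fold. On the log2 scale this was 0.85 ± 0.14 (SE), adjusted p = 0.0247 in edgeR's quasi-likelihood test. Blocking on litter (replicate block) gave 0.85 with an adjusted p of 0.0594, so that the call was lost. It was also lost on leaving out control kidney 1, control kidney 2, control kidney 3, LIN28B Wt1 kidney 1 or LIN28B Wt1 kidney 2, with adjusted p up to 0.185 and log2 changes of 0.82 to 0.88, and stayed without LIN28B Wt1 kidney 3. A joint fit of all 12 kidneys lost the call as well.

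In the let-7 experiment, Fzd2 measured 37.3, 32.5 and 32.3 CPM in WT littermates and 40.6, 64.6 and 81.6 CPM in let-7 KO kidneys. The lowest KO kidney lay just above the highest WT kidney, and the KO kidneys were spread over a wide range. The log2 fold change was 0.86 ± 0.26 (SE), with an adjusted p of 0.362 in edgeR's quasi-likelihood test, so that it did not pass the correction though all 3 KO kidneys were higher. Let-7 KO kidneys also had the lower length slopes. With that slope as a covariate, an alternative chosen after the data were seen, the value was 0.56, adjusted p = 0.704. Blocking on litter (replicate block) gave 0.83, adjusted p = 0.498, and then 0 members were at p below 0.01, against 288 of 15500 genes.

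Fzd6, a Frizzled receptor known for its part in planar polarity (chr15:39006034-39038188), was lower in LIN28B Wt1 kidneys without passing the adjusted threshold. It measured 35.1, 32.6 and 28.7 CPM in controls and 16.1, 19.1 and 20.4 CPM in LIN28B Wt1 kidneys, with no overlap. The fitted log2 change was -0.79 ± 0.19 (SE), adjusted p = 0.0796 in edgeR's quasi-likelihood test, while DESeq2 gave an adjusted p of 0.0118. In the let-7 experiment Fzd6 measured 22.7, 23.3 and 26.6 CPM in WT and 27.3, 19.6 and 22.4 CPM in KO kidneys, and these overlapped, with a log2 fold change of -0.08 ± 0.24 (SE). An antisense gene shares 3.2% of the Fzd6 exon length, and its reads cannot be told apart in a library that does not keep strand.

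The other Frizzled receptors did not reach p below 0.01 in either model. Fzd1 measured 98.3 ± 20.3 and 76.8 ± 21 CPM (SD, n = 3) in LIN28B control and LIN28B Wt1 kidneys, a log2 fold change of -0.35 ± 0.22 (SE), and 101 ± 6.74 and 101 ± 34.3 CPM in let-7 WT and KO kidneys, a log2 fold change of 0.01 ± 0.25 (SE). Fzd7 measured 55.6, 80.6 and 58.4 CPM in let-7 WT and 55.2, 36.9 and 34.6 CPM in let-7 KO kidneys, which did not overlap, a log2 fold change of -0.62 ± 0.25 (SE) with adjusted p = 0.413 in edgeR's quasi-likelihood test, and had a log2 fold change of -0.24 ± 0.24 (SE) in LIN28B Wt1 kidneys. Fzd4, the receptor of norrin in blood vessels, had log2 fold changes of -0.53 ± 0.30 (SE) and -0.56 ± 0.42 (SE). Its value in LIN28B Wt1 mice depended on kidney 3, at 46.7 CPM against 19.8 and 30.3 in kidneys 1 and 2. Without kidney 3 the log2 fold change was -0.90 with an adjusted p of 0.0423, in a fit that called 12.8% of all genes. Over all settings run it reached -0.28, and adjusted p reached 0.796 in edgeR's or DESeq2's tests. Within litters the log2 difference was -0.97 in litter 1 and 0.14 in litter 2. The 7 endothelial markers summed to 539.9 to 583 CPM in LIN28B Wt1 kidneys against 798 to 846 CPM in controls. Of these markers 5 were lower at p below 0.01, against 7.33% of all genes, and none was called, against 1.23%. In let-7 WT and KO kidneys they summed to 705 to 861 and 633 to 875 CPM. The part of these markers in the level of Fzd4 was not tested.

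Fzd8 had log2 fold changes of -0.17 ± 0.30 (SE) in LIN28B Wt1 mice and -0.26 ± 0.34 (SE) in let-7 KO kidneys. With the length slope as a covariate the let-7 KO values of Fzd4 and Fzd8 turned to 0.31 and 0.33. Over the 10 Frizzled receptors, 4 log2 fold changes were positive and 6 negative in each model, with a median of -0.20 for LIN28B Wt1 kidneys and -0.17 for let-7 KO kidneys. Fzd9, singled out after its values were seen, had the widest fitted values, at 2.34 for LIN28B Wt1 kidneys and -2.56 for let-7 KO kidneys, but this gene had a mean of 1.22 CPM and was at 0 in 1 LIN28B control and 1 let-7 KO kidney.

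The LRP co-receptors, which bind the Wnt ligand together with Frizzled, passed no threshold in either model. Lrp6 measured 59.5 ± 7.30, 58.3 ± 6.31, 65.5 ± 14.5 and 65.1 ± 3.22 CPM (SD, n = 3) in LIN28B control, LIN28B Wt1, let-7 WT and let-7 KO kidneys, with log2 fold changes of -0.03 ± 0.16 (SE) and -0.02 ± 0.21 (SE). Those of Lrp5 were 0.07 ± 0.33 (SE) and -0.61 ± 0.51 (SE). The errors were wider for Lrp5 than for Lrp6.

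Sfrp1, a secreted protein that binds Wnt ligands (chr8:23411502-23449632), fell in LIN28B Wt1 kidneys. It measured 371, 425 and 309.6 CPM in controls and 224, 225 and 199 CPM in LIN28B Wt1 kidneys, and every LIN28B Wt1 kidney was below every control. On the log2 scale this was -0.77 ± 0.15 (SE), a level 1.70-fold lower, with an adjusted p of 0.0425 in edgeR's quasi-likelihood test. Blocking on litter (replicate block) gave -0.76 with an adjusted p of 0.0549, and the call was lost. It was also lost on leaving out control kidney 1, control kidney 2, control kidney 3, LIN28B Wt1 kidney 1 or LIN28B Wt1 kidney 2, with adjusted p up to 0.257 and log2 changes of -0.86 to -0.65, and stayed without LIN28B Wt1 kidney 3.

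In the let-7 experiment Sfrp1 measured 648, 645 and 489.9 CPM in WT littermates and 455, 409 and 391 CPM in let-7 KO kidneys. The WT kidneys stood above the LIN28B controls and the KO kidneys above the LIN28B Wt1 kidneys. The KO kidneys were again all below their littermates. The log2 fold change was -0.51 ± 0.17 (SE), with an adjusted p of 0.377 in edgeR's quasi-likelihood test, which did not pass. Markers of stroma summed to 4551 to 4941 CPM in LIN28B controls and 3735 to 4267 CPM in LIN28B Wt1 kidneys. There 1 of 13 fell at an adjusted p below 0.05, against 1.23% of all genes. At p below 0.01, 3 were lower and 1 was higher, against 7.33% of all genes. In let-7 WT and KO kidneys the list summed to 3818 to 5508 and 4438 to 5906 CPM. The part of these markers in the level of Sfrp1 was not tested.

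The remaining secreted inhibitors did not pass the adjusted threshold. Sfrp2, close kin of Sfrp1 and listed among renal vesicle markers, measured 151 ± 27.2 and 128 ± 9.09 CPM (SD, n = 3) in LIN28B control and Wt1 kidneys, a log2 fold change of -0.24 ± 0.16 (SE), and 111 ± 27.6 and 96.7 ± 8.40 CPM in let-7 WT and KO kidneys, a log2 fold change of -0.20 ± 0.21 (SE). Dkk1, which blocks LRP5 and LRP6, measured 28.2, 27.9 and 29.8 CPM in LIN28B controls and 34.6, 45.7 and 34.4 CPM in LIN28B Wt1 kidneys, which did not overlap. Its log2 fold change was 0.42 ± 0.18 (SE), adjusted p = 0.260 in edgeR's quasi-likelihood test, and 0.24 ± 0.38 (SE) in let-7 KO kidneys.

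Notum, an enzyme that strips the lipid from Wnt ligands, lay lower in LIN28B Wt1 kidneys, at 6.50, 7.45 and 9.72 CPM against 15.1, 11.9 and 12.5 CPM in controls, without overlap. The fitted log2 change was -0.74 ± 0.28 (SE), adjusted p = 0.202 in edgeR's quasi-likelihood test, and 0.39 ± 0.44 (SE) in let-7 KO kidneys. Antisense genes overlap 29.4% and 8.7% of the Notum exon length. The largest such shares among the other members are 17.8% for Fzd5, 16.1% for Sfrp2, 14.6% for Ctnnb1, 13.7% for Lef1 and 13.1% for Rspo3. Dkk3 had log2 fold changes of 0.12 ± 0.21 (SE) and -0.41 ± 0.25 (SE) in the 2 models, and Wif1, at a mean of 1.81 CPM, of 0.96 ± 0.58 (SE) and -0.70 ± 1.47 (SE). Summed over the 10 genes, secreted inhibitors came to 544 to 705 CPM in LIN28B controls and 443 to 475 CPM in LIN28B Wt1 kidneys, and to 758 to 903 and 588 to 680.1 CPM in let-7 WT and KO kidneys. These sums did not overlap in either experiment, but they did without Sfrp1, at 235 to 285 CPM in LIN28B controls against 219 to 263 CPM in LIN28B Wt1 kidneys, and 193 to 268 CPM in let-7 WT against 197 to 225 CPM in let-7 KO kidneys. Of the 8 inhibitors tested, 4 had positive and 4 negative log2 changes in LIN28B Wt1 kidneys, with a median of -0.06. For let-7 KO, 2 were positive and 6 negative, with a median of -0.31.

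No Wnt ligand reached p below 0.01 in edgeR's quasi-likelihood test of either model, while DESeq2 put Wnt6 below it in both models and Wnt5b in let-7 KO kidneys. Wnt4 measured 126, 121 and 183 CPM in LIN28B controls and 192, 180.1 and 131 CPM in LIN28B Wt1 kidneys, a log2 fold change of 0.23 ± 0.20 (SE), adjusted p = 0.614 in edgeR's quasi-likelihood test. The direction differed between litters, at 0.59 in litter 1 and -0.49 in litter 2 on the log2 scale. In the let-7 experiment it measured 89.3, 149 and 86.7 CPM in WT and 132, 173 and 176 CPM in KO kidneys. WT kidney 2 lay within the range of the KO kidneys, and the log2 fold change was 0.56 ± 0.24 (SE), adjusted p = 0.435. Without that kidney it was 0.87, with an adjusted p of 0.375. Over all settings run it went down to 0.21, with adjusted p from 0.178 to 0.803 in edgeR's or DESeq2's tests.

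Groups overlapped in both experiments for Wnt9b, Wnt11 and Wnt7b, ligands of the ureteric bud and collecting duct. Wnt9b measured 31.9, 21.5 and 34.9 CPM in LIN28B controls and 16, 32.2 and 39.4 CPM in LIN28B Wt1 kidneys, and 20.2, 29.5 and 19.2 and 39.0, 30.7 and 11.4 CPM in let-7 WT and KO kidneys, with log2 fold changes of -0.01 ± 0.32 (SE) and 0.23 ± 0.40 (SE). Wnt11 had log2 fold changes of 0.16 ± 0.16 (SE) and 0.27 ± 0.23 (SE), and Wnt7b of -0.24 ± 0.19 (SE) and -0.20 ± 0.28 (SE). For Wnt5a, a ligand of the noncanonical branch, they were -0.03 ± 0.19 (SE) and -0.00 ± 0.28 (SE). Wnt2b, at a mean of 0.390 CPM, was too low to compare, with standard errors of 1.14 and 1.47. Wnt5b had values of 18.5, 21.2 and 14.5 CPM in let-7 WT and 29.8, 36.7 and 24.9 CPM in let-7 KO kidneys without overlap, a log2 fold change of 0.75 ± 0.26 (SE) and adjusted p = 0.377 in edgeR's test, and 0.42 ± 0.22 (SE) in LIN28B Wt1 kidneys. Wnt5b was named after its values were seen.

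Wnt6, a ligand of the ureteric epithelium (chr1:74771892-74785322), was named after its values were seen, since its groups did not overlap in either model. It measured 2.26, 2.35 and 1.95 CPM in LIN28B controls and 5.27, 5.43 and 5.56 CPM in LIN28B Wt1 kidneys, and 1.30, 3.58 and 2.64 CPM in let-7 WT and 6.14, 7.03 and 8.39 CPM in let-7 KO kidneys. Every mutant kidney was above every one of the 6 controls. On the log2 scale this was 1.31 ± 0.41 (SE), adjusted p = 0.139, in LIN28B Wt1 mice and 1.51 ± 0.53 (SE), adjusted p = 0.379, in let-7 KO kidneys by edgeR's quasi-likelihood test, so neither passed. DESeq2 gave an adjusted p of 0.0387 in LIN28B Wt1 kidneys and of 0.155 in let-7 KO kidneys. Its neighbour Wnt10a, 6.2 kb away on the same strand, had log2 fold changes of -0.11 ± 1.31 (SE) and -0.36 ± 0.93 (SE). Of 10 ureteric tip markers, 2 rose and none fell at an adjusted p below 0.05 in LIN28B Wt1 kidneys, against 1.23% of all genes. The list summed to 433 to 709 CPM there against 410 to 430 CPM in controls. In let-7 WT and KO kidneys it summed to 246 to 350 and 301 to 347 CPM. The part of these markers in the level of Wnt6 was not tested.

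Fitted changes of the 13 ligands tested ran from -0.81 to 1.31 in LIN28B Wt1 kidneys, 5 positive and 8 negative, and from -0.81 to 1.51 in let-7 KO kidneys, 9 positive and 4 negative, with medians of -0.03 and 0.47. The summed ligand level was 341 to 422 CPM in LIN28B controls and 400.0 to 431 CPM in LIN28B Wt1 kidneys, and 297 to 461 and 397 to 487 CPM in let-7 WT and KO kidneys, overlapping in both experiments. The ligands Wnt1, Wnt3, Wnt3a, Wnt7a, Wnt8a and Wnt10b, were tested in neither model, and none of them exceeded 0.798 CPM in a kidney.

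**Figure D3:**
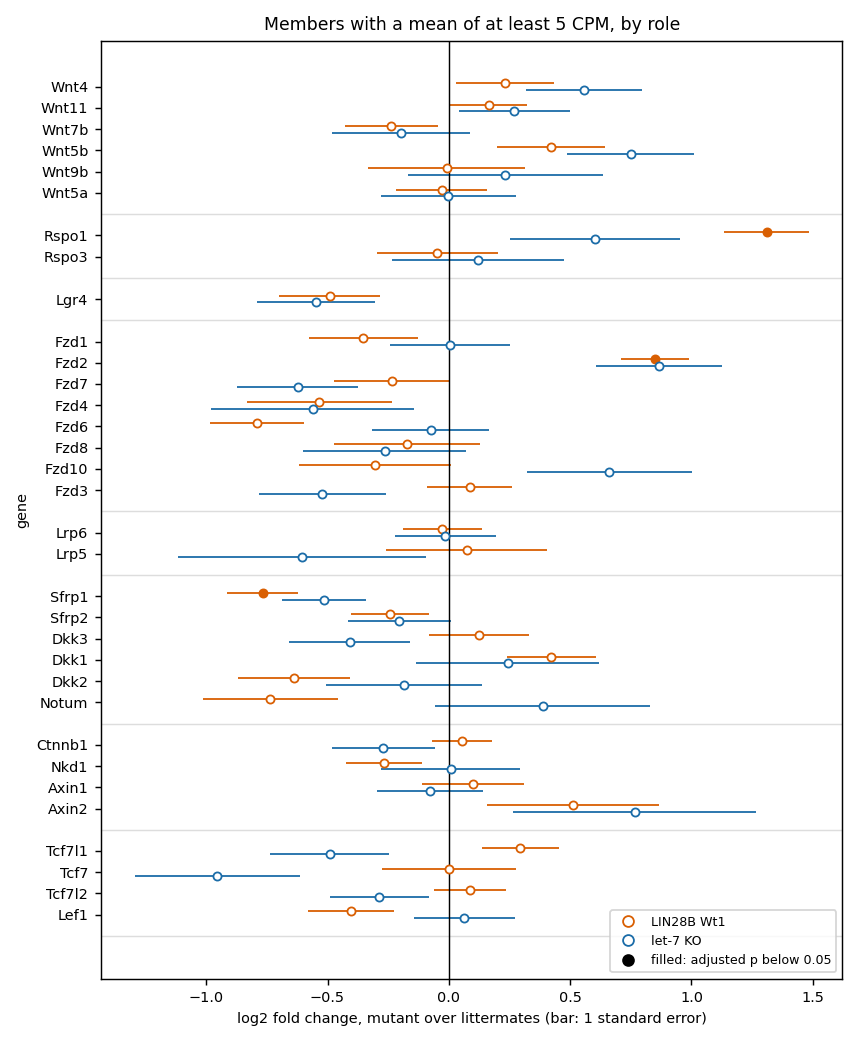
Log2 fold change of mutant over littermate kidneys, with 1 standard error, for the 33 members with a mean of at least 5 CPM, grouped by role, in LIN28B Wt1 (orange) and let-7 KO (blue). Filled points passed an adjusted p below 0.05, which only Rspo1, Fzd2 and Sfrp1 did, in LIN28B Wt1 kidneys.

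Downstream of the receptors no member reached p below 0.01 in edgeR's quasi-likelihood test of either model, while DESeq2 put Tcf7 below it in let-7 KO kidneys. Ctnnb1, the transcript of beta-catenin, measured 545, 556 and 526 CPM in LIN28B controls and 537, 511 and 637 CPM in LIN28B Wt1 kidneys, a log2 fold change of 0.05 ± 0.13 (SE). In the let-7 experiment it measured 687, 578 and 702 CPM in WT and 689, 553 and 396 CPM in KO kidneys, a log2 fold change of -0.27 ± 0.21 (SE), with the groups overlapping. Transcript levels say nothing of the stability of the beta-catenin protein, which is the step that Wnt signalling controls.

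Axin2, a scaffold of the destruction complex and the usual transcriptional readout of canonical signalling, measured 5.03, 4.95 and 3.69 CPM in LIN28B controls and 6.06, 7.47 and 5.94 CPM in LIN28B Wt1 kidneys, and 2.24, 4.15 and 4.23 CPM in let-7 WT and 7.6, 5.56 and 4.98 CPM in let-7 KO kidneys. Neither pair of groups overlapped, with the mutant kidneys higher in both. At these levels the errors were wide, and the log2 fold change was 0.51 ± 0.35 (SE), adjusted p = 0.500, in LIN28B Wt1 mice and 0.77 ± 0.50 (SE), adjusted p = 0.610, in let-7 KO kidneys in edgeR's quasi-likelihood test. Axin1 had log2 fold changes of 0.10 ± 0.21 (SE) and -0.08 ± 0.22 (SE), and Nkd1, an inhibitor induced by the pathway, of -0.27 ± 0.16 (SE) and 0.01 ± 0.29 (SE).

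Among the TCF/LEF factors, which carry the signal to target genes, Lef1 measured 49.7, 45.7 and 41.0 CPM in LIN28B controls and 32, 31.2 and 39.6 CPM in LIN28B Wt1 kidneys, which did not overlap. The log2 fold change was -0.41 ± 0.18 (SE), adjusted p = 0.266 in edgeR's quasi-likelihood test, and the difference lay in litter 1, at -0.60 against -0.05 in litter 2 on the log2 scale. In let-7 KO kidneys it was 0.06 ± 0.21 (SE). Lef1 is also among the renal vesicle markers, of which no marker passed the adjusted threshold in either model, with sums of 1143 to 1279 and 868 to 972 CPM in LIN28B control and Wt1 kidneys.

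Tcf7 measured 24.4, 29.3 and 28.8 CPM in let-7 WT and 22.1, 10.4 and 10.1 CPM in let-7 KO kidneys, all KO kidneys being lower. The fitted log2 change was -0.95 ± 0.34 (SE), adjusted p = 0.379 in edgeR's quasi-likelihood test, and -0.00 ± 0.28 (SE) in LIN28B Wt1 kidneys, where kidney 3 stood at 35.3 CPM and kidneys 1 and 2 at 17.3 and 19.6 CPM. Without let-7 KO kidney 1, the log2 fold change of Tcf7 was -1.44 with an adjusted p of 0.0732. At the other end of the settings run it was -0.71, and adjusted p reached 0.763 in edgeR's or DESeq2's tests. Tcf7l1, mostly a repressor of targets, measured 54.0, 54.6 and 59.7 CPM in LIN28B controls and 64.6, 61.7 and 79.6 CPM in LIN28B Wt1 kidneys, a log2 fold change of 0.30 ± 0.16 (SE), against 49.3, 69.0 and 49.7 CPM in let-7 WT and 49.4, 39.8 and 30.8 CPM in let-7 KO kidneys, a log2 fold change of -0.49 ± 0.24 (SE). Tcf7l2 had log2 fold changes of 0.09 ± 0.15 (SE) and -0.29 ± 0.20 (SE). In let-7 KO kidneys 3 of the 4 factors had negative values, and Tcf7 and Tcf7l2 did not overlap with their littermates.

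**Figure D4:**
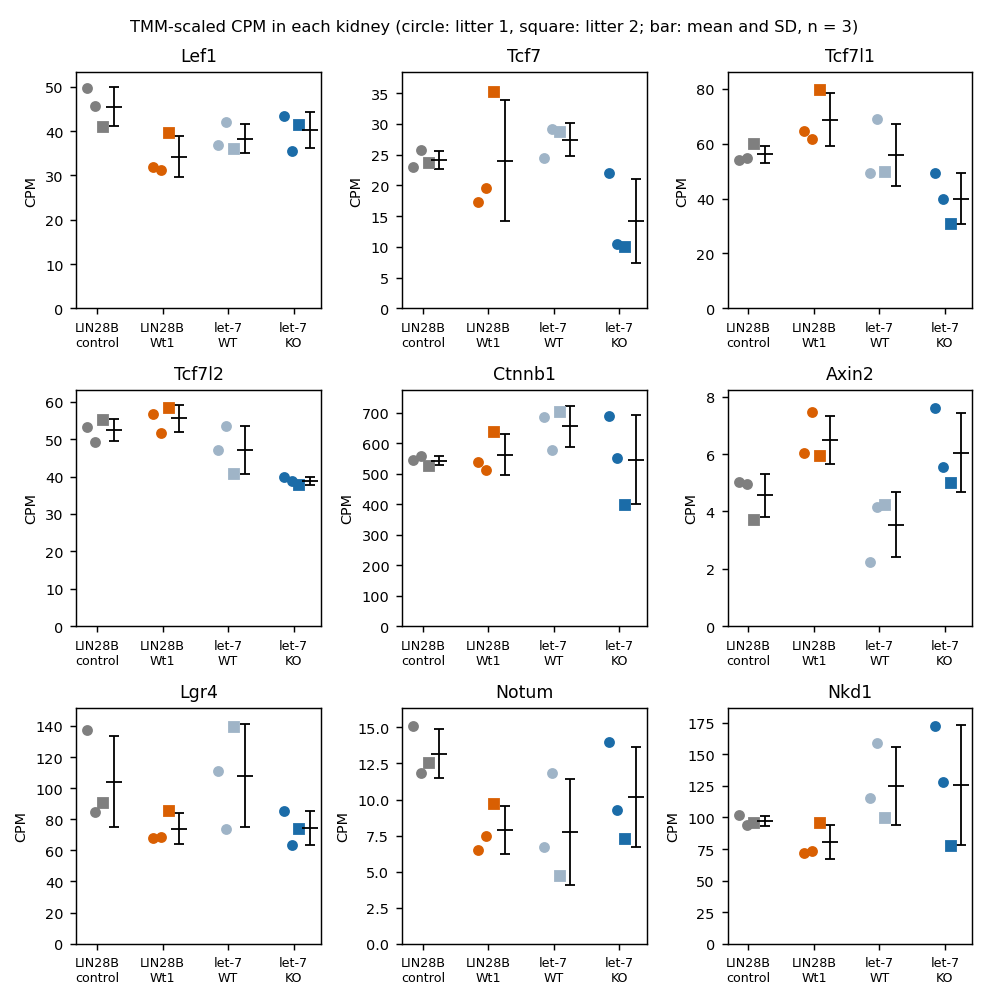
CPM of 9 effectors, TCF/LEF factors and regulators in each kidney, with circles for litter 1, squares for litter 2 and bars for the mean and SD of 3 kidneys. Axin2 lies higher in both mutant groups than in their littermates, Tcf7 and Tcf7l2 lie lower in let-7 KO kidneys, and Ctnnb1 overlaps between groups in both experiments.

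The difference between the 2 models was the interaction term of a fit over the 12 kidneys. No member passed an adjusted p below 0.05 in edgeR's quasi-likelihood test or in DESeq2. Of the 16598 genes tested, 0.00602% passed in edgeR and 0.609% in DESeq2. None of the members reached p below 0.01 in either test, against 1.55% of all genes in edgeR. At p below 0.05 there were 5 of 46 members in edgeR, or 10.9%, against 6.27% of all genes. They were Tcf7l1, with a log2 difference (LIN28B effect minus let-7 effect) of 0.77 ± 0.28 (SE) and adjusted p = 0.692, Fzd6, Fzd10, Notum and Fzd9. None of the 5 passed the correction. For Rspo1 the difference was 0.69 ± 0.36 (SE) with adjusted p = 0.828, so the 2 models were not separated for it. For Fzd2 it was -0.04 ± 0.30 (SE), for Sfrp1 -0.27 ± 0.22 (SE) and for Wnt6 -0.22 ± 0.64 (SE).

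Side by side, the 45 members tested in both models had the same sign in 55.6%, 10 positive and 15 negative in both, against 65.5% of the 15136 genes tested in both. Among the 33 members of at least 5 CPM, 19 had the same sign, 7 positive and 12 negative, and Pearson's r between the 2 sets of log2 fold changes was 0.45 (Spearman's rho 0.32). This correlation is across genes, which share libraries and are not independent replicates. The 2 models did not share control kidneys.

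The 2 control groups were also compared with each other. Comparing the 3 let-7 WT with the 3 LIN28B control kidneys, no member passed an adjusted p below 0.05 in edgeR's quasi-likelihood test, against 1.19% of the 15850 genes tested, but 3 of 45 did at p below 0.01, or 6.67%, against 4.79% of all genes. At p below 0.05 there were 7 members, or 15.6%, against 12.7% of all genes, and DESeq2 called 3 members, or 6.67%, at an adjusted p below 0.05, against 4.3% of all genes. Sfrp1 was higher in let-7 WT kidneys by a log2 fold change of 0.69 ± 0.16 (SE), adjusted p = 0.0875, and Dkk3 by 0.60 ± 0.16 (SE), adjusted p = 0.141, while Rspo1 was lower, at -1.01 ± 0.27 (SE), adjusted p = 0.143. Dkk3 measured 41.5, 51.1 and 45.7 CPM in LIN28B controls and 71.1, 77.2 and 60.5 CPM in let-7 WT kidneys, without overlap. This comparison shares the LIN28B controls with the LIN28B comparison and the WT kidneys with the let-7 comparison. Strain, litter and experiment cannot be told apart in it, and the proximal tubule sum also differed, at 5234 to 5899 against 3675 to 3855 CPM. At an adjusted p below 0.05, 3 of 9 proximal tubule and 1 of 6 loop and distal tubule markers were higher in let-7 WT kidneys. Lower there were 3 of 5 adipose markers, with a list median of -7.10, and 1 of 13 cap mesenchyme markers. Of 10 ureteric tip markers 3 were lower at p below 0.01, with a median of -0.81. The part of these lists was not tested.

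Of the 10 tested members that hold the let-7 seed letters in their 3′ UTR, none reached p below 0.01 in either model. That threshold was reached by 7.33% of all genes for the LIN28B comparison and by 2.73% for the let-7 comparison. At such shares, no conclusion can be drawn from a count of 0 among these 10 members. Their log2 fold changes ran from -0.80 to 1.26 in LIN28B Wt1 kidneys, with a median of -0.06 against -0.03 for the 35 members without the letters, and had a median of -0.39 against -0.02 in let-7 KO kidneys. Over all genes with and without the letters the medians were 0.01 and -0.03 for LIN28B Wt1 kidneys. For let-7 KO kidneys they were -0.07 and -0.03. In let-7 KO kidneys the values of the printed genes were 0.23 for Wnt9b, 0.01 for Nkd1, -0.41 for Dkk3, -0.49 for Tcf7l1, -0.52 for Fzd3, -0.55 for Lgr4 and -0.56 for Fzd4. The longer 3′ UTRs of the members and the length slopes of these libraries stand beside these medians, and their part was not tested. The TCF/LEF letters CTTTGAT and CTTTGAA, on either strand, occurred in the RefSeq promoters (250 bases before to 50 after the start) of 3 of the 36 members with an entry, Dkk1, Wnt5b and Wnt11. Some members had more than 1 promoter. Counted by promoter, 3 of the members' 45 held the letters, or 6.7%, against 8.7% of all 32851 promoters.

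Other genes of the pathway were read from a list of 102, covering Wnt secretion, further receptors and inhibitors, intracellular transduction, the transcription complex, planar cell polarity and beta-catenin target genes, of which 96 had a row. In LIN28B Wt1 kidneys 1 of 92 tested passed an adjusted p below 0.05 and 6 passed p below 0.01, 3 higher and 3 lower, or 6.52%, against 7.33% of all genes. In let-7 KO kidneys none of 91 passed the adjusted threshold in edgeR and 1 passed p below 0.01, or 1.1%, against 2.73% of all genes. Neither share was above that of all genes. The gene called was Cited1, a nephron progenitor factor on the list of beta-catenin targets, at 8.29, 5.01 and 9.91 CPM in LIN28B controls and 90.5, 78.8 and 63.7 CPM in LIN28B Wt1 kidneys, a log2 fold change of 3.33 ± 0.27 (SE) with an adjusted p of 0.000938 in edgeR's quasi-likelihood test. Cited1 is also on the cap mesenchyme list.

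Myc, a growth regulator and beta-catenin target, passed p below 0.01 in both models in opposite directions. It measured 51.7, 61.4 and 42.0 CPM in LIN28B controls and 71.8, 74.1 and 100.4 CPM in LIN28B Wt1 kidneys, a log2 fold change of 0.67 ± 0.20 (SE), and 63.0, 83.9 and 67.3 CPM in let-7 WT and 54.3, 35.6 and 39.8 CPM in let-7 KO kidneys, a log2 fold change of -0.73 ± 0.23 (SE). Groups were separate in both experiments, with adjusted p values of 0.12 and 0.366, and of 0.313 for the difference, in edgeR's quasi-likelihood test. None of the genes listed for Wnt secretion, intracellular transduction, the transcription complex or planar cell polarity passed p below 0.01 in either model.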

How the data were processed

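Total RNA from whole kidneys was made into libraries with a SMARTer Ultra Low RNA kit, which does not keep strand. Per the labels the authors used cutadapt, TopHat2 2.0.9, Bowtie2, SAMtools 0.1.19 and HTSeq on mm10, and for every kidney they deposited read counts by gene symbol, not normalized. The annotation and strand setting are not given in the sources used here. Totals per kidney were 39926235 to 61872736 counts. All columns were used.

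The 2 models were fitted separately with edgeR 4.0.16 in R 4.3.3, using filterByExpr (minimum count 10, minimum total 15), TMM scaling, quasi-likelihood F tests and Benjamini-Hochberg adjustment over all genes tested. A gene was called at an adjusted p below 0.05, and the study's threshold of p below 0.01 is given beside it. Standard errors are the log2 fold change over the square root of F. The difference between models was an interaction over 12 kidneys. With 3 against 3 kidneys an exact permutation test cannot go below 0.1, so none is given. CPM were scaled over all 12 kidneys. Exon lengths, 3′ UTRs and overlaps came from GENCODE M21, in which all 55 members matched 1 gene. Groups came from the strain and genotype labels.

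Litters were taken from the labels, which name littermates. Kidneys of a litter did not deviate together, with mean correlations of -0.08 in the same and 0.10 in different litters for LIN28B and -0.01 and 0.01 for let-7. Median chi-square per gene between kidneys of a group was 12.8 or more, so no library was taken as a repeat of another. Alternatives were DESeq2 1.42.0, 2 other scalings, 2 filters, a replicate block for litter, a joint fit of the 4 groups, each kidney left out, the other threshold and, added after the data were seen, a length covariate. The scripts were tested on simulated counts.

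The members and lists were chosen with earlier results of these data known. Full values are given for members past either threshold in a comparison, members with known kidney roles, the 3 highest per role, and other pathway genes with an adjusted p below 0.05 in either model or p below 0.01 in both.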

Additional observations from a re-analysis of the deposited data

How the results depend on the processing

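In LIN28B Wt1 kidneys the 3 members called were 3 with other scalings or filters, 5 with DESeq2, 4 with the length covariate, 2 in the joint fit of 12 kidneys and 1, Rspo1, with litter as a replicate block. The share of all genes called was 1.17% to 3.14% with those scalings or filters and 8% with DESeq2. It was 8.69% with the length covariate, 1.42% in the joint fit and 0.602% with the block. The block ended the calls of Fzd2 and Sfrp1 and changed no other call, and the joint fit ended that of Fzd2. With 1 kidney left out the count ran from 0 to 5. It was 0 without control 1 or control 2, where 0.167% and 0.129% of all genes were called. It was 1 without control 3, LIN28B Wt1 kidney 1 or kidney 2, against 0.401%, 0.437% and 0.282% of all genes. Without LIN28B Wt1 kidney 3 it was 5, against 12.8% of all genes. At p below 0.01 the 4 members became 3 to 7 with 1 kidney left out. All genes at that threshold ran from 515 of 16238, without control 2, to 2509 of 16258, without LIN28B Wt1 kidney 3.

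In let-7 KO kidneys the adjusted count was 0 under every setting run, against at most 1.04% of all genes. At p below 0.01 there was 1 member, which became 5 with DESeq2, 2 with the strict filter, 0 with the replicate block, 4 in the joint fit and 0 to 4 with 1 kidney left out. All genes at p below 0.01 were 843 of 15500 with DESeq2, 474 of 12484 with the strict filter and 288 of 15500 with the block. They were 687 of 16598 in the joint fit and 162 to 1296 with 1 kidney left out. For the difference between models the adjusted count was 0 throughout, against at most 0.609% of all genes. At p below 0.01 it was 1 with the length covariate and 0 to 2 with 1 kidney left out. All genes at that threshold were 433 of 16598 with the covariate and 165 to 461 with 1 kidney left out. Between the control groups, 3 members passed p below 0.01 against 0 after adjustment. DESeq2 called 3 after adjustment and 5 at p below 0.01, the length covariate gave 6 at p below 0.01, and leaving out 1 kidney gave 0 to 2 and 1 to 4. All genes at p below 0.01 were 1141 of 15850 with DESeq2 and 1119 of 15850 with the covariate. With 1 kidney left out, 0.222% to 1.9% of all genes were called, and 454 to 1130 had p below 0.01. The control groups allow no replicate block, since litters lie within them. The cause of these shifts was not tested.

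Over all genes, the 194 called in LIN28B Wt1 kidneys became 1264 with DESeq2, 95 with the replicate block and 1372 with the length covariate. Of 1971 alternative values for the named members, 1901 kept their side of the threshold and moved by less than 1 standard error or stayed called, and no called value changed sign. With 3 kidneys a group and 0.0490 to 0.0825 CPM as the floor, the 10 members tested in neither model could not be compared.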
